A study of Homo sapiens with 10 samples.

Results

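The 9 receptor genes of phagocytes followed here were read on 10 one-colour Affymetrix arrays: the Fc receptor genes FCGR1A, FCGR2A and FCER1G, the beta-2 integrin genes ITGAM, ITGAX and ITGB2, and the complement and collectin-type receptor genes CD93, C3AR1 and C5AR1. They are 9 of the 19775 genes that the array annotation reaches through probe sets with a single symbol. Each gene was read from its probe set with the highest mean over the 10 arrays. The human lines were THP1, a monocytic leukaemia line that the labels call macrophages, and HCT116 and Hke3, a pair of colorectal carcinoma lines. Hke3 is known as a single clone derived from HCT116, which the labels do not state. THP1 was profiled with vitamin D3 and alone. HCT116 and Hke3 were each profiled in coculture with THP1 macrophages plus vitamin D3, in coculture without it, with vitamin D3 and alone. Vitamin D3 was given for 24 h. Every condition has 1 array, so a difference within THP1 carries no test, and no dose, no contact or separation of the cocultured cells, no step turning THP1 into macrophages and no separate cultures are given in the sources used here.

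Fc receptors bind the constant part of antibodies on a coated target. FCGR1A encodes the high-affinity IgG receptor, which signals through the gamma chain encoded by FCER1G, while FCGR2A carries its own activating motif. ITGB2 encodes the beta chain shared by the leukocyte integrins; paired with the ITGAM chain it forms complement receptor 3, and with the ITGAX chain complement receptor 4, both of which bind C3 fragments on opsonised particles. C3AR1 and C5AR1 are G protein-coupled receptors for the small complement fragments C3a and C5a, and CD93 is a lectin-like membrane glycoprotein first described as a C1q receptor. Vitamin D is a long-known inducer of monocyte differentiation in myeloid leukaemia lines.

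The values are log2 intensities, and 6.18 log2, the median of all values, served as the level below which a probe set was treated as dim. A probe set's level can be compared across arrays, but not with that of another probe set. CYP24A1, the vitamin D-inducible hydroxylase, checked the treatment. It stood at 10.40 log2 in THP1 with vitamin D3 and 4.51 in THP1 alone. In colon cancer monocultures it was also higher with vitamin D3 (12.35 against 10.89 in Hke3, 11.43 against 9.99 in HCT116), but in cocultures it was lower (10.89 against 12.25 in Hke3, 9.70 against 10.68 in HCT116). The vitamin D3 labels of the cocultures do not follow this marker in either line. If they were exchanged, the vitamin D3 difference of every coculture pair would change sign, and counts and tests of vitamin D3 in the colon cancer lines could change. Cocultures would also be paired with other monocultures. The SE and calls for coculture and cell line could then change as well. All such values rest on the labels as deposited, and an exchange was not tested. In addition, 1 label field of the Hke3 monoculture titled as treated calls it untreated (it was kept as treated, by its title and culture field). All 15 macrophage markers measured (16 were listed) exceeded 6.18 log2 on both THP1 arrays, with medians of 11.30 with vitamin D3 and 11.27 alone. Neutrophil granule genes were also bright there (5 of 6 over 6.18, medians 13.02 and 13.01), while the 10 epithelial markers had medians of 5.69 and 5.55 in THP1 against 10.36 to 10.91 on the colon cancer arrays. None of 5 T cell markers and 3 of 4 B cell markers exceeded 6.18 log2 on a THP1 array. On each colon cancer array 2 to 3 of those B cell markers and 0 to 1 of the T cell markers did so too.

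In THP1, vitamin D3 was accompanied by a higher C5AR1, by a higher ITGAM on 1 of its 2 probe sets, and by moderately higher CD93 and ITGB2. FCGR2A and FCER1G were lower, and ITGAX and C3AR1 differed by less than 0.05 log2. Of 8 members over 6.18 log2 on a THP1 array, 1 lay past 2-fold higher (background 1.56% of 12717 genes) and 0 past 2-fold lower (background 0.488%). Over all 9 chosen probe sets, 3 differences were above 0 and 6 below it (46.3% of all 19775 genes were above 0), with a median of -0.03 log2, against -0.01 for the genes over the dim level. The members therefore had no common direction. The 5th and 95th percentiles of those genes were -0.43 and 0.54 log2. Each array is a bulk sample, in which fewer cells of a type and less RNA per cell cannot be told apart. The plot of every member on the 10 arrays shows these levels.

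**Figure D1:**
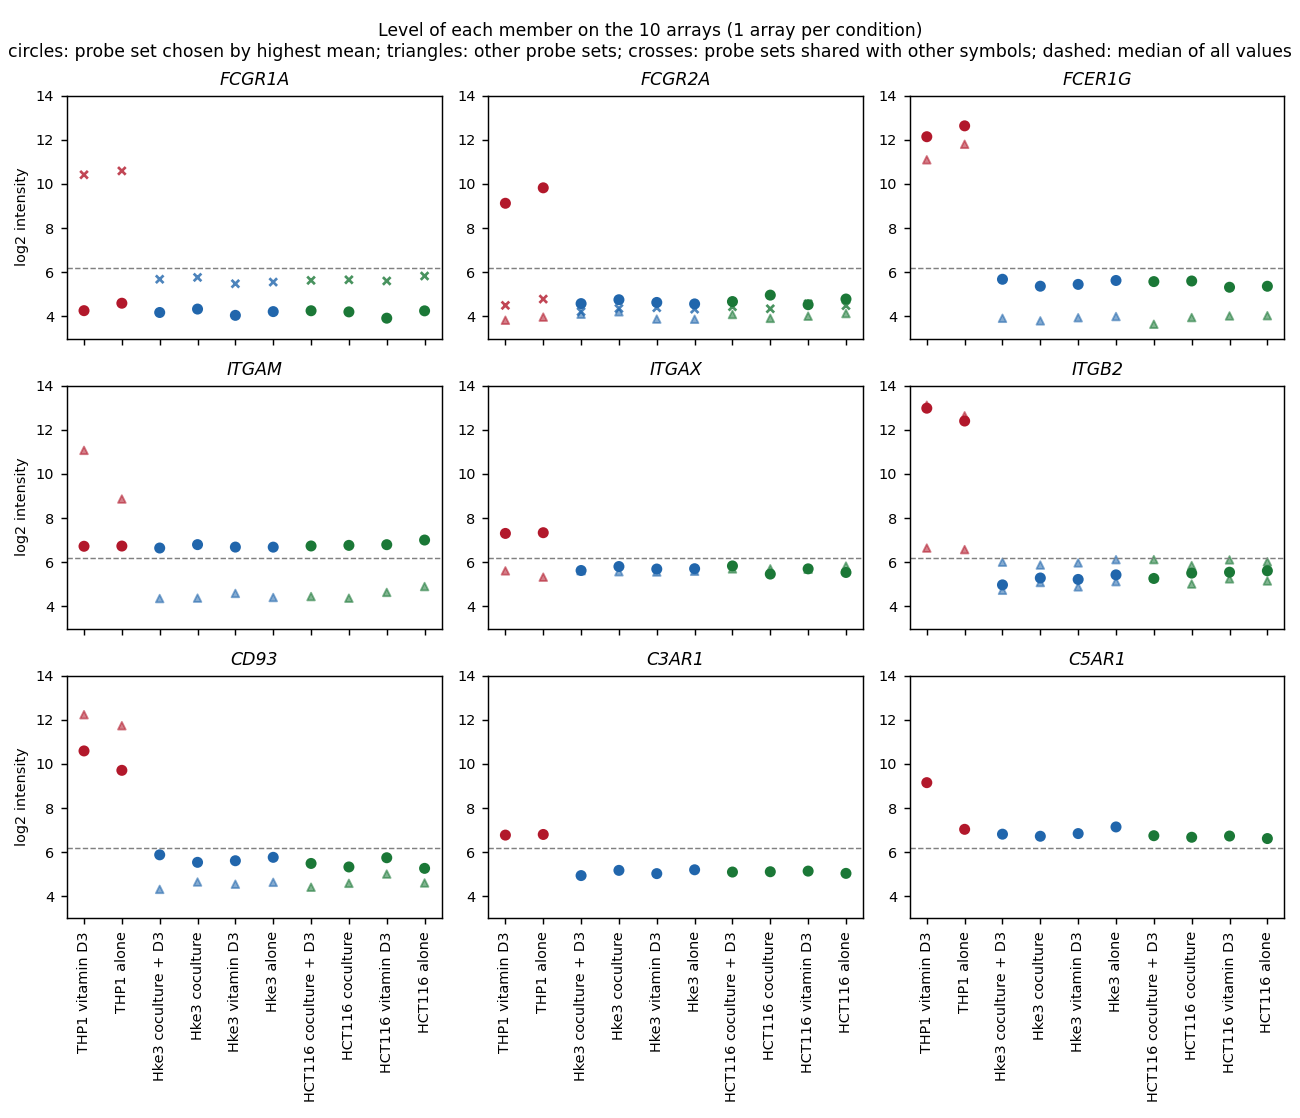
Log2 intensity (vertical axes) of the 9 members on the 10 arrays (horizontal axes; red THP1, blue Hke3, green HCT116), with circles for the chosen probe set, triangles for other probe sets, crosses for probe sets shared with other symbols and a dashed line at 6.18 log2. FCGR2A, FCER1G, ITGB2 and CD93 stood far above the colon cancer arrays on both THP1 arrays, whereas the chosen ITGAM probe set did not, and C5AR1 did so only with vitamin D3.

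Among the Fc receptor genes, FCGR2A (203561_at) had 9.12 log2 in THP1 with vitamin D3 and 9.82 in THP1 alone, a difference of -0.70 log2 or 1.62-fold lower. Only 1.33% of the genes over the dim level had a more negative difference. A second FCGR2A probe set and one shared with FCGR2C stayed dim on both THP1 arrays, at 3.83 and 4.50 log2 with vitamin D3 and 3.97 and 4.79 alone, so a single probe set carries the FCGR2A signal. FCER1G, the gamma chain, was measured by 2 bright probe sets. The chosen one (204232_at) gave 12.14 log2 with vitamin D3 and 12.63 alone (-0.49), and the other 11.09 with vitamin D3 and 11.80 alone (-0.70). Both probe sets put the treated array lower, by 1.41-fold and 1.63-fold.

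FCGR1A, the partner of that gamma chain, was the member that the selection rule could not show. Its only single-symbol probe set (216951_at) was dim everywhere, at 4.26 log2 in THP1 with vitamin D3 and 4.60 in THP1 alone, against 3.92 to 4.33 on the colon cancer arrays. A probe set shared between FCGR1A and its near-identical copies FCGR1BP and FCGR1CP gave 10.42 log2 with vitamin D3 and 10.59 alone, a difference of -0.17, against 5.48 to 5.83 on the colon cancer arrays. A further probe set, annotated to FCGR1BP alone, gave 11.33 with vitamin D3 and 11.02 alone, a difference of 0.31. The FCGR1 group was thus bright in THP1, its 2 bright probe sets pointed opposite ways with vitamin D3, and neither can be assigned to FCGR1A by the annotation.

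RefSeq promoters (GRCh38.p14) were at hand for 6 of the 9 members: FCGR1A, FCGR2A, FCER1G, ITGAM, C3AR1 and C5AR1. The 4 with the core GAGGAA, recognised by the myeloid factor PU.1, are shown. They include a pair of Fc receptor genes that share a stretch, and C5AR1 and ITGAM. Those 2 had the largest vitamin D3 differences in THP1 over all member probe sets. For ITGAM this holds only for 205786_s_at, since its chosen probe set differed by -0.01 log2. Each sequence is the 250 bases before the start, 5′ to 3′ on the gene's strand, with capitals at GAGGAA or its complement TTCCTC.
FCGR1A, chr1:149782444-149782693, plus strand: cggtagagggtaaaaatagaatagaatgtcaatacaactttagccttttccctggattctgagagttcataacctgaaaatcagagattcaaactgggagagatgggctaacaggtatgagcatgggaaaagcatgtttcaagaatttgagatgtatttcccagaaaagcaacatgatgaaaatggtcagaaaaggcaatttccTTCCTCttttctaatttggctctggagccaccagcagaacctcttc
FCGR2A, chr1:161505207-161505456, plus strand: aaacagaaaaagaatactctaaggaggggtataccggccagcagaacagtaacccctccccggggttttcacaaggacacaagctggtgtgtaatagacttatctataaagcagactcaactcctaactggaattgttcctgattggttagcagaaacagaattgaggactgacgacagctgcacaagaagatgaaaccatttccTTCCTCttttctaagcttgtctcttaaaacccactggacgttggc
ITGAM, chr16:31259725-31259974, plus strand: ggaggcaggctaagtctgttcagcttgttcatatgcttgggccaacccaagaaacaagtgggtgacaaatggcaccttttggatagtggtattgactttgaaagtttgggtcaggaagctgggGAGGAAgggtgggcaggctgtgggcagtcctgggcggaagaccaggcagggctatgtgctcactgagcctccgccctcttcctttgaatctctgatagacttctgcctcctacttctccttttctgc
C5AR1, chr19:47309611-47309860, plus strand: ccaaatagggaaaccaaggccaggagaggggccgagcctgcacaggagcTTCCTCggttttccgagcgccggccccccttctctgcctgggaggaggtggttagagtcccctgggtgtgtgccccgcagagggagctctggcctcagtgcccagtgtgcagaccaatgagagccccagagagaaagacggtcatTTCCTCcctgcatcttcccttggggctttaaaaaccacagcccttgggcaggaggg
The core, searched on both strands, was in 23.6% of 35116 promoters of the same length. FCGR1A and FCGR2A share a run of 20 bases, atttccTTCCTCttttctaa, that begins 52 bases before the start of FCGR1A and 51 before that of FCGR2A. FCGR1A was the only one of the 6 with the interferon-type motif TTCNNNGAA (93 bases before the start; 6.57% of all promoters on either strand). A direct repeat of the vitamin D receptor site NGNTCA, where the first base is A or G and the third is G or T, with 3 bases between the copies, was in 0 of these 6 windows and in 0.0655% of all promoters, and a single copy, searched on both strands, was in 3 of the 6 (FCGR1A, ITGAM and C3AR1) against 33.8% of all. These are letter matches in a short window and say nothing of binding.

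The beta-2 integrin chains differed among themselves. ITGAM, the alpha chain of complement receptor 3, was read by 2 probe sets that disagreed. The chosen one, 205785_at, gave 6.72 log2 in THP1 with vitamin D3 and 6.73 in THP1 alone, and was as high on the colon cancer arrays, with a lowest value of 6.64, a median of 6.75 and a highest of 7.01. The other, 205786_s_at, gave 11.07 log2 with vitamin D3 and 8.86 alone, a difference of 2.20 log2 or 4.61-fold, against 4.36 to 4.90 on the colon cancer arrays. With each gene read from its brightest probe set in THP1, an alternative added after the data were seen, this was the difference of rank 52 among 12878 genes, and 1.55% of those genes lay past 2-fold higher. The rule had picked the first probe set because its mean over all 10 arrays was the larger, and that choice alone decides whether ITGAM appears altered.

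ITGB2, the shared beta chain, had 12.98 log2 with vitamin D3 and 12.39 alone on its chosen probe set, 1555349_a_at (0.58 log2, 1.5-fold), and 13.11 with vitamin D3 and 12.63 alone on the second (0.48). The third probe set was near the dim level, at 6.64 with vitamin D3 and 6.57 alone. All 3 were higher on the treated array. ITGAX, the alpha chain of complement receptor 4, had 7.31 log2 with vitamin D3 and 7.34 alone on its chosen probe set, 210184_at, and a dim second probe set gave 5.61 with vitamin D3 and 5.32 alone. ITGAX lies next to ITGAM on chromosome 16, and its difference of -0.03 log2 stands beside 2.20 for ITGAM by 205786_s_at and -0.01 by 205785_at.

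Of the complement and lectin-like receptors, C5AR1, the C5a receptor (220088_at), had 9.15 log2 in THP1 with vitamin D3 and 7.04 in THP1 alone. This was 2.11 log2 or 4.33-fold higher, the difference of rank 48 among 12717 genes. Its level in untreated THP1 lay within the range of the colon cancer arrays (6.62 to 7.15 log2, median 6.74), so only the treated THP1 array stood above all of them. CD93 (202877_s_at) had 10.59 log2 with vitamin D3 and 9.71 alone (0.88 log2, 1.84-fold), and its second probe set 12.23 with vitamin D3 and 11.73 alone (0.50 log2, 1.41-fold). C3AR1, the C3a receptor (209906_at), had 6.78 log2 with vitamin D3 and 6.80 alone. The receptors for C5a and C3a thus stood apart, at 2.11 and -0.03 log2.

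**Figure D2:**
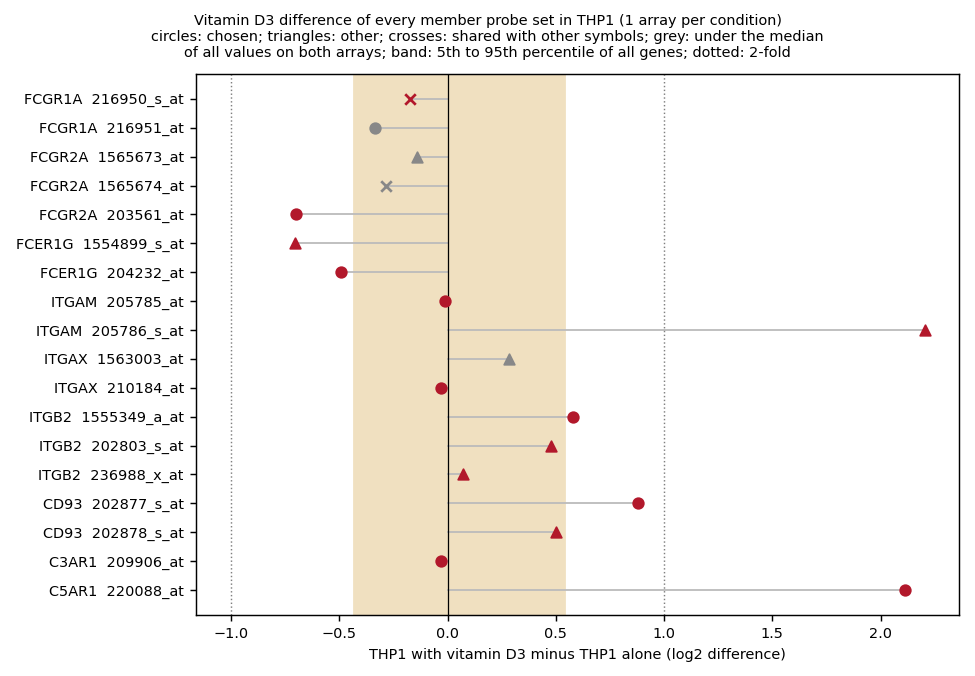
Difference in log2 intensity between THP1 with vitamin D3 and THP1 alone (horizontal axis) for each of the 18 member probe sets (vertical axis), with circles for chosen probe sets, triangles for others, crosses for shared ones, and grey for those under 6.18 log2 on both arrays; the band spans the 5th to 95th percentile of 12717 genes and dotted lines mark 2-fold. ITGAM 205786_s_at (2.20) and C5AR1 (2.11) stand past 2-fold, and the chosen CD93 (0.88) and ITGB2 (0.58) probe sets lie right of the band. FCGR2A 203561_at (-0.70) and both FCER1G probe sets lie left of it, and the other FCGR2A probe sets lie within it.

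Further genes of these systems, from lists chosen with earlier results of these data known, gave the setting in THP1. Over all 12717 genes above the dim level, 1.56% lay past 2-fold higher and 0.488% past 2-fold lower, with a median of -0.01 log2. Of 7 other Fc receptor genes over the dim level, 0 lay past 2-fold in either direction (median -0.05 log2). The neonatal Fc receptor FCGRT had 10.85 log2 with vitamin D3 and 10.24 alone (0.61), the inhibitory receptor FCGR2B 5.81 and 6.24 (-0.43), and the intracellular antibody receptor TRIM21 9.65 and 9.46 (0.19). Of 14 integrin partners, activators and ligands, 0 lay past 2-fold higher and 1 past 2-fold lower (median 0.00). That one was ITGAL, the alpha chain that pairs with ITGB2 in LFA-1, with 8.43 log2 with vitamin D3 and 9.54 alone (-1.11). ICAM1, a ligand of LFA-1 and of complement receptor 3, had 9.11 and 8.14 (0.97), and the alpha-4 integrin chain ITGA4 8.86 and 9.51 (-0.65). Of the 4 alpha chains that pair with ITGB2, the differences were -1.11 for ITGAL, -0.14 for ITGAD (6.91 with vitamin D3, 7.06 alone) and -0.03 for ITGAX. For ITGAM the difference was -0.01 by the chosen probe set and 2.20 by the bright one, which the rule did not pick. ITGAD was as high on the colon cancer arrays (6.90 to 7.13 log2).

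Of 12 complement components and regulators over the dim level, 1 lay past 2-fold higher and 1 past 2-fold lower (median 0.24 log2). Properdin, encoded by CFP, which stabilises the alternative pathway convertase, had 9.63 log2 with vitamin D3 and 7.93 alone (1.70). The C1q chain gene C1QC had 6.54 and 7.65 (-1.11), and the chaperone CLU 6.43 and 5.70 (0.74). Of 15 genes listed for ITAM signalling, the relay from activating receptors to tyrosine kinases, 2 lay past 2-fold higher and 0 lower (median 0.23). The list also holds inhibitory members such as SIRPA. TREM1, an activating receptor of myeloid cells, had 9.36 log2 with vitamin D3 and 4.72 alone (4.64), the SRC-family kinase FGR 7.91 and 6.45 (1.47), and the exchange factor VAV1 10.63 and 9.93 (0.70).

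**Figure D3:**
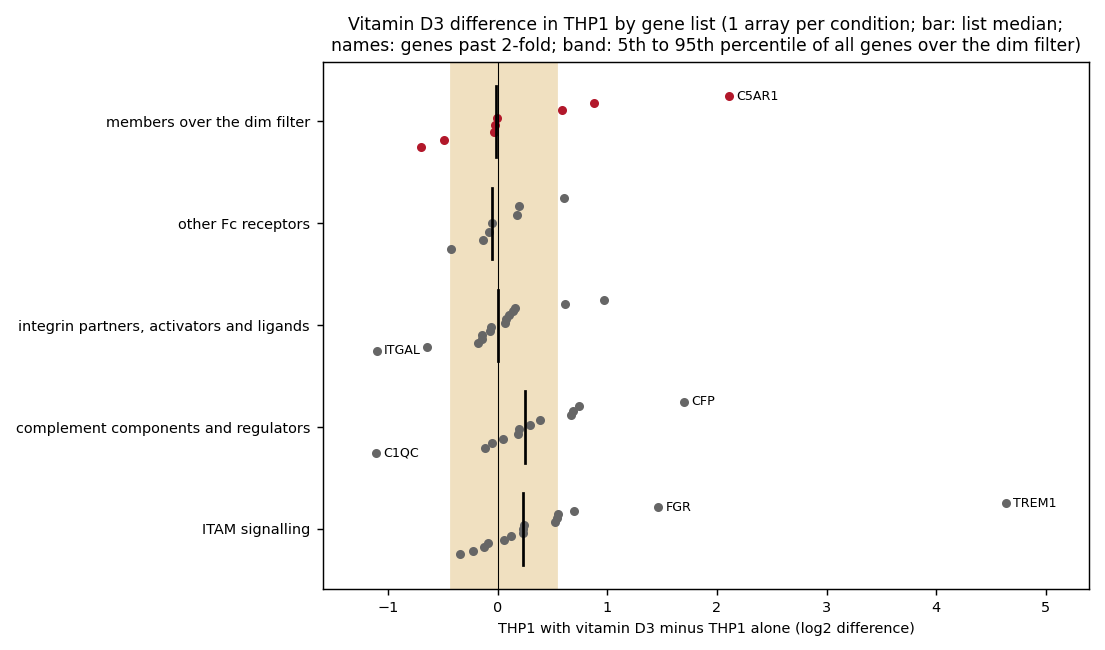
Difference in log2 intensity between THP1 with vitamin D3 and THP1 alone (horizontal axis) for the 8 members over 6.18 log2 on a THP1 array (red) and for 4 gene lists (grey), 1 point per gene, with the list median as a bar, the 5th to 95th percentile of 12717 genes as a band, and names at genes past 2-fold. List medians lie between -0.05 and 0.24, and single genes such as TREM1 (4.64), C5AR1 (2.11) and ITGAL (-1.11) lie outside the band.

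Set against the colon cancer lines, both THP1 arrays lay above all 8 colon cancer arrays for 6 of the 9 chosen probe sets: FCGR2A, FCER1G, ITGAX, ITGB2, CD93 and C3AR1. Over all 19775 genes, with no filter, 20.8% did so. Untreated THP1 alone lay above all 8 for 7 of the 9, with FCGR1A added (26.8% of all genes). In a limma model of all 10 arrays with line, coculture and vitamin D3 as terms, ITGB2 was higher in THP1 by 7.23 ± 0.16 log2 (SE) and FCER1G by 6.94 ± 0.14. FCGR2A was higher by 4.84 ± 0.13, CD93 by 4.55 ± 0.17, C3AR1 by 1.68 ± 0.08 and ITGAX by 1.66 ± 0.11. In this comparison 68.3% of 13879 genes passed a limma adjusted p of 0.05. These 6 genes passed the filter only through THP1, so that they differed follows in part from the filter. Their values are descriptions, with no test. The model takes vitamin D3 to act alike in all lines, and the 2 THP1 conditions stand in for replicates.

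For ITGAM and C5AR1 this comparison turned on a single choice. ITGAM differed by -0.06 ± 0.08 log2 on the chosen probe set (limma adjusted p = 0.516) but by 5.33 ± 0.42 when each gene was read from its brightest probe set in THP1. That probe set was picked for its level in THP1 and passed the filter only there, so this value is a description, with no test. C5AR1 was higher in THP1 by 1.26 ± 0.41 log2 (limma adjusted p = 0.0208), and without the treated THP1 array the difference was 0.20 ± 0.15 (adjusted p = 0.279), with the lone THP1 array assumed to vary like the others. Without the untreated THP1 array it was 2.32. Leaving out the HCT116 array with vitamin D3 or the Hke3 array with vitamin D3 also ended the C5AR1 call (adjusted p = 0.0547 and 0.0572). FCGR1A, below the filter, differed by 0.32 ± 0.09 log2 when no filter was used (limma adjusted p = 0.0134; 51% of 19775 genes passed), a difference between values that all lay far below the dim level.

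The 5 other genes whose pattern over the 10 arrays was closest to the mean of the 9 members were FCGR1BP, the copper amine oxidase AOC1, the transcription factor DACH1, EVI2B and the lysosomal protease CTSS, each with a Pearson r of 0.999. The points of such a correlation fall into a THP1 pair and a colon cancer set, so it describes mainly the step between them. The mean of the members was 8.78 log2 in THP1 with vitamin D3 and 8.56 in THP1 alone, against 5.47 to 5.59 log2 on the colon cancer arrays.

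In the colon cancer lines, 2 of the 9 members, C5AR1 and ITGAM, exceeded 6.18 log2 on any array. The chosen probe sets of the other 7 stayed between 3.92 and 5.88 log2 on all 8 arrays. FCGR2A ranged from 4.53 to 4.97 (median 4.65), FCER1G from 5.32 to 5.68 (5.51), ITGAX from 5.46 to 5.83 (5.70), ITGB2 from 4.98 to 5.61 (5.36), CD93 from 5.27 to 5.88 (5.58) and C3AR1 from 4.94 to 5.21 (5.11). CD93 had its highest colon cancer value in Hke3 in coculture with vitamin D3 and its lowest in untreated HCT116, and FCGR2A its highest in HCT116 in coculture (4.97) and its lowest in HCT116 with vitamin D3 (4.53). Levels this dim cannot show whether the RNA was present. 

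C5AR1 had 6.82 log2 in Hke3 in coculture with vitamin D3, 6.72 in coculture, 6.84 with vitamin D3 and 7.15 alone. In HCT116 it had 6.75 log2 in coculture with vitamin D3, 6.68 in coculture, 6.73 with vitamin D3 and 6.62 alone. The untreated Hke3 array was the highest, and the other 7 lay between 6.62 and 6.84. The coculture difference was -0.09 ± 0.09 log2 (SE of limma's fit of the 8 arrays; adjusted p = 0.55), that of vitamin D3 -0.01 ± 0.09 (adjusted p = 1.0) and that of Hke3 against HCT116 0.19 ± 0.09 (adjusted p = 0.125). Without the untreated Hke3 array the coculture difference was 0.01 and the cell line difference 0.08.

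ITGAM by its chosen probe set had 6.64 log2 in Hke3 in coculture with vitamin D3, 6.80 in coculture, 6.69 with vitamin D3 and 6.68 alone. In HCT116 it had 6.74 log2 in coculture with vitamin D3, 6.76 in coculture, 6.80 with vitamin D3 and 7.01 alone. The untreated HCT116 array was the highest. The differences were -0.06 ± 0.07 log2 for coculture (limma adjusted p = 0.632), -0.10 ± 0.07 for vitamin D3 (adjusted p = 1.0) and -0.12 ± 0.07 for Hke3 against HCT116 (adjusted p = 0.17). That probe set, 205785_at, was no higher in THP1 than on the colon cancer arrays. The other ITGAM probe set, 205786_s_at, was dim on all 8 arrays (4.36 to 4.90 log2). It was lower in coculture in each pair, by -0.24 ± 0.09 log2 (limma adjusted p = 0.215 over all probe sets). Its differences were -0.01 ± 0.09 for vitamin D3 and -0.16 ± 0.09 for cell line (limma adjusted p = 0.249 for cell line). So 0 of these 2 tested members passed for coculture, where 7.82% of 13243 genes did, 0 for vitamin D3 as labelled, where 0% did (limma; 375 genes, 2.83%, at an unadjusted p under 0.05), and 0 for cell line, where 40.5% did.

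With no filter on dim genes, none of the 9 passed for coculture (3.32% of 19775 genes did) or for vitamin D3 (0%; 761 genes, 3.85%, at an unadjusted p under 0.05, limma). ITGB2 was the 1 member that passed for cell line (26.4% of genes did, 10.6% as lower in Hke3). It had 4.98 log2 in Hke3 in coculture with vitamin D3, 5.29 in coculture, 5.22 with vitamin D3 and 5.43 alone. In HCT116 it had 5.27 log2 in coculture with vitamin D3, 5.51 in coculture, 5.55 with vitamin D3 and 5.61 alone. Hke3 was lower in all 4 pairs, with a difference of -0.26 ± 0.06 log2 (limma adjusted p = 0.0146; fits without single arrays were not run at this setting), and the ranges of the lines overlapped. On this chosen probe set, the difference was below 0 in all 4 pairs for coculture too (-0.19 ± 0.06, adjusted p = 0.124) and for vitamin D3 (-0.21 ± 0.06, adjusted p = 1.0), as labelled. The vitamin D3 pairs were -0.31 and -0.24 log2 in the cocultures, whose labels CYP24A1 does not follow. In the monocultures of Hke3 and HCT116 they were -0.21 and -0.07. With the labels exchanged, the vitamin D3 pairs of the cocultures would lie above 0. Hke3 in coculture (5.29) would then be paired with Hke3 with vitamin D3 (5.22), so not every coculture difference would lie below 0. The second ITGB2 probe set, bright in THP1, gave -0.23 ± 0.10 log2 for cell line (limma adjusted p = 0.155 over all probe sets). It gave -0.07 ± 0.10 for coculture and -0.05 ± 0.10 for vitamin D3. The third gave -0.03 ± 0.08 for cell line, -0.09 ± 0.08 for coculture and 0.09 ± 0.08 for vitamin D3. On each of these probe sets the pairs of every factor fell on both sides of 0. The 3′ minus 5′ difference of the ACTB control probe sets, a sign of RNA quality, was 0.56 to 0.94 log2 in Hke3 and 0.16 to 0.30 in HCT116. These ranges do not overlap, so RNA quality and cell line cannot be told apart on these arrays. Its part in the ITGB2 difference, or in any other difference between the lines, was not tested.

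**Figure D4:**
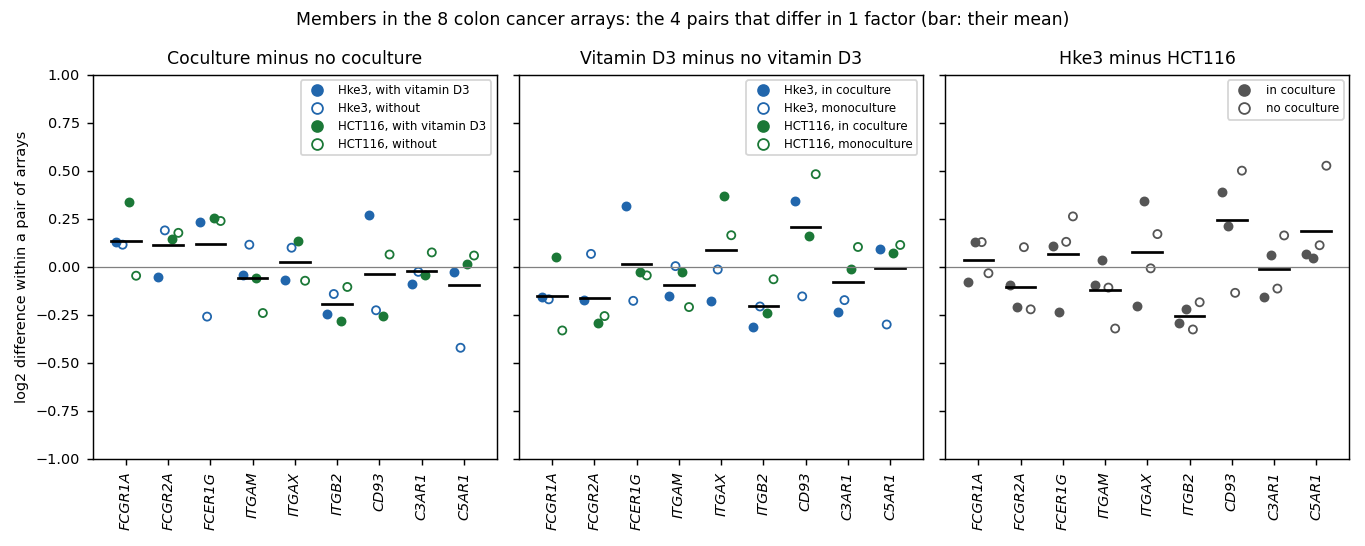
Difference in log2 intensity (vertical axis) within each of the 4 pairs of colon cancer arrays that differ in coculture (left), vitamin D3 (middle) or cell line (right), for the chosen probe set of the 9 members (horizontal axes), with the mean of the pairs as a bar. With arrays as labelled, ITGB2 lies below 0 in all 4 pairs of each panel, C5AR1 lies above 0 in all 4 pairs of the right panel, and the pairs of the other members fall on both sides of 0.

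Macrophage RNA in the cocultured cancer cells was followed through the 15 macrophage markers. Their median was 5.24 to 5.43 log2 on the 4 coculture arrays and 5.26 to 5.38 on the 4 without coculture, with 5 to 6 markers over 6.18 log2 in coculture and 4 to 5 without it. The proteoglycan SRGN was 6.28 log2 in cocultured Hke3 given vitamin D3 and 3.94 to 4.90 on the other 7, and 4.67 against 4.19 to 4.47 on its second probe set. The third SRGN probe set, at 7.48 and 6.59 log2 in THP1 with vitamin D3 and alone, was lowest on that array (3.84, against 3.87 to 4.13). On that Hke3 array CD93 (5.88) and FCER1G (5.68) had their highest colon cancer values and ITGB2 (4.98) its lowest on the chosen probe sets, all dim. The second probe set of CD93 had its lowest colon cancer value there (4.32, against 4.42 to 5.01 on the other 7), and the second of FCER1G had 3.92, within the 3.65 to 4.03 of the others. Whether RNA of THP1 plays a part in these values was not tested.

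The lists of these systems gave few calls for coculture in the colon cancer lines, where 3.76% of genes tested were called higher and 4.05% lower. Of 9 complement genes tested 2 rose, CD55, which protects cells from complement (0.52 ± 0.11 log2, limma adjusted p = 0.0284), and the protease CFD (0.34 ± 0.07, adjusted p = 0.0244). Of 10 ITAM signalling genes 2 rose, VAV1 (0.21 ± 0.05, adjusted p = 0.047) and PLCG2, a phospholipase (0.22 ± 0.05, adjusted p = 0.0444), and of 12 integrin-related genes the adhesion ligand ICAM2 fell (-0.34 ± 0.08, adjusted p = 0.0403). Of 6 other Fc receptor genes 0 passed. These calls were fragile: of 8 fits that each left out 1 array, 2 kept CD55, 1 kept CFD, 2 kept ICAM2 and 0 kept VAV1 or PLCG2, with adjusted p up to 0.132. List medians were 0.13 log2 for complement, -0.01 for ITAM signalling, -0.07 for integrin-related genes and -0.03 for other Fc receptors, against -0.02 for all genes tested. None of these lists had a call for vitamin D3.

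Between the lines, where 24.8% of genes tested were called higher in Hke3 and 15.7% lower, 7 of 10 ITAM signalling genes passed, 3 higher and 4 lower in Hke3, with a list median of -0.13 log2 against 0.01 for all genes tested. The kinase SYK was lower in Hke3, with a difference of -1.83 ± 0.24 log2 (limma adjusted p = 0.00072), as was VAV1 (-0.39 ± 0.05), whereas SIRPA, an inhibitory receptor, was higher by 0.40 ± 0.06 and the kinase LYN by 0.34 ± 0.05. Of 12 integrin-related genes 2 passed, the integrin activator TLN1, higher in Hke3 (1.04 ± 0.10), and ICAM1, lower (-0.85 ± 0.12). Of 9 complement genes CLU (1.66 ± 0.17) and CFD (0.44 ± 0.07) were higher in Hke3, and of 6 other Fc receptors 0 passed. The 8 genes named in this comparison passed in all 8 fits that left out 1 array. Such fits cannot separate cell line from the ACTB 3′ minus 5′ difference, which set all Hke3 arrays apart from all HCT116 arrays. The other ITAM calls did not: PTPN6 and TREM2 passed in 4 of 8 and LILRA2 in 2 of 8 (names given after their values were seen).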

How the data were processed

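Total RNA was profiled on 10 one-colour Affymetrix arrays. Per the submitters' processing notes, the authors made the deposited log2 intensities per probe set with RMA (background correction, quantile normalisation, probe summarisation) in the R package affy; the version and whether all arrays were normalised together are not given in the sources used here. Of 54675 probe sets, 41097 map to 1 symbol and 1801 to several; those of several symbols were shown but not fitted by gene. Arrays were grouped by title. Genes entered a fit if at least 1 array in it read over 6.18 log2, the overall median.

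limma 3.58.1 (R 4.3.3) fitted an additive model of vitamin D3, coculture and line to the 8 colon cancer arrays; 4 pairs of arrays per factor take the place of replicates. Tests were two-sided, with Benjamini-Hochberg adjustment over all genes tested and a threshold of 0.05. The fits were tested on simulated data with independent noise and added effects of a single factor. Such data cannot show how the fits behave with exchanged labels or with effects that depend on another factor. Past 2-fold means a log2 difference of at least 1. P-values measure the spread of these arrays around the additive model, not a spread between replicate cultures. With 1 array per condition, noise and effects of a factor that depend on another factor cannot be told apart in that spread. The number of arrays limits the precision. The members and lists were chosen with earlier results of these data known. The rule named all members, CYP24A1 and SRGN, the 3 largest THP1 differences per list, up to 4 list genes past the threshold and the 5 closest patterns. Alternatives were no filter, a stricter filter (8.14 log2, percentile 75), averaging probe sets by gene, median-centred arrays, cyclic loess normalisation, a block of the other 2 factors, no vitamin D3 term, leaving out each array, and, after seeing the data, each probe set alone and the probe set brightest in THP1. Plots used matplotlib 3.10.9 and Python 3.11.15.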

Additional observations from a re-analysis of the deposited data

Results flagged for a closer look

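In the 8 colon cancer arrays, taken as 1 set of different conditions, a single array stood apart from the others for 2 members. ITGAM had 7.01 log2 in untreated HCT116, with 6.80 in Hke3 in coculture as the next highest. C5AR1 had 7.15 log2 in untreated Hke3, with 6.84 in Hke3 with vitamin D3 as the next highest. How often such a flag arises by chance, or over all genes, was not counted, and these arrays are not replicates.

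For ITGAX and vitamin D3, both Hke3 pairs were below 0 and both HCT116 pairs above it, a difference of -0.36 log2 between the lines. For C5AR1 and coculture, both Hke3 pairs were below 0 and both HCT116 pairs above it, a difference of -0.26. The Hke3 pairs were -0.03 with vitamin D3 and -0.42 without it, the latter holding the untreated Hke3 array flagged above. The HCT116 pairs were 0.02 and 0.06. With the vitamin D3 labels of the cocultures exchanged, HCT116 in coculture (6.68) would be paired with HCT116 with vitamin D3 (6.73). That pair would lie below 0. Neither difference between the lines was tested. The ITGAX coculture pairs (-0.18 in Hke3, 0.37 in HCT116) rest on vitamin D3 labels that CYP24A1 does not follow; the monoculture pairs were -0.01 and 0.16.

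Of the 9 member probe sets that were not chosen, 6 were higher on both THP1 arrays than on all 8 colon cancer arrays. On chosen probe sets 20.8% of 19775 genes were so, and the share over probe sets not chosen was not counted. The THP1 mean minus the colon cancer mean was 4.85 log2 for the probe set shared by FCGR1A and its copies, 7.53 for the second of FCER1G, 5.45 for ITGAM 205786_s_at, 7.80 and 0.60 for the other 2 of ITGB2, and 7.38 for the second of CD93.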

How the results depend on the processing

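No paired analysis was possible because each condition has 1 array and no replicate number to pair by; arrays matched on the other 2 factors served as a block instead. The count of genes called for coculture, 1035 (498 higher, 537 lower), was 656 with no filter, 259 with that block, and 39 to 459 when 1 array was left out, the lowest without the HCT116 array with vitamin D3; cyclic loess normalisation gave 713 higher and 365 lower. The causes were not tested. The counts for vitamin D3 in colon cancer arrays (0), cell line (5364, and 4140 to 4668 with 1 array left out), THP1 against colon cancer (9478, and 8681 to 9394) and THP1 past 2-fold (260) stayed within 1.5 times. Among members, ITGAM in THP1 against colon cancer, -0.06 log2 as chosen, was 2.63 with the mean of its probe sets and 5.33 with the probe set brightest in THP1, which is the other probe set entering. C5AR1, uncalled in the colon cancer lines, ranged from -0.16 to 0.013 log2 for coculture when 1 array was left out (above 0 without untreated Hke3), and from -0.068 to 0.10 for vitamin D3 (above 0 without HCT116 in coculture, untreated Hke3, Hke3 with vitamin D3 or Hke3 in coculture with vitamin D3); for vitamin D3 it was 0.017 with median-centred arrays and 0.016 with cyclic loess. Its cell line difference was 0.08 without untreated Hke3, against 0.19. With the mean of probe sets, the THP1 minus colon cancer difference was 2.38 log2 for FCGR2A and 0.73 for ITGAX, and the vitamin D3 difference in THP1 was 1.10 for ITGAM, -0.42 for FCGR2A, 0.38 for ITGB2 and 0.13 for ITGAX. With the probe set brightest in THP1, CD93 was 7.28 for THP1 minus colon cancer and 0.50 for vitamin D3. Under cyclic loess the near-zero vitamin D3 differences of ITGAM and C3AR1 in THP1 were 0.01 and 0.0046. All vitamin D3 values of the cocultures rest on the labels as deposited, as do the coculture pairs and the SE of the colon cancer fits. Values under 6.18 log2 limit what 7 members can show in colon cancer cells. For ITGAM and C5AR1, a level over 6.18 log2 does not by itself show that the RNA was present. ITGAM by 205785_at was no higher in THP1, and C5AR1 in untreated THP1 lay within the colon cancer range.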
